A study of Mus musculus with 6 samples.

Results

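The 10 genes described here are textbook transcriptional targets of p53, chosen by name: *Cdkn1a*, *Ccng1*, *Sesn1* and *Zmat3*, which restrain the cell cycle and growth, *Mdm2*, which limits p53 itself, and *Bax*, *Bbc3*, *Phlda3*, *Trp53inp1* and *Eda2r*, whose products act in or promote cell death. They are 10 of the 56748 genes in the count table, each with 1 row, and all 10 were among the 13107 genes with enough counts to be tested. The question is whether endothelial cells (ECs) that lose TDP-43, an RNA-binding protein encoded by *Tardbp*, differ from control ECs in the arrest or the death arm of this program.

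The libraries are bulk RNA-Seq of ECs sorted from spinal cords at postnatal day 16 (P16), 1 mouse per library. The 3 control mice carried the floxed *Tardbp* allele (labelled Tardbpflox) and no Cre, and the 3 knockout mice (TDP-43iΔEC, labelled Cdh5(PAC)-CreERT2;Tardbpflox) carried the same allele with a tamoxifen-inducible Cre driven by the EC promoter of *Cdh5*. Both groups received tamoxifen (1 mg/mL) at P5 to P7, so an effect of the drug is shared, whereas an effect of the active Cre and an effect of the lost TDP-43 cannot be told apart. Per the methods, the mice were of mixed sex with a C57BL/6 background.

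Total counts ranged from 25704871 to 47270654 per library. *Tardbp* had 55.3, 61.9 and 58.5 CPM (counts scaled to a common library total) in control mice 1, 2 and 3 and 26.6, 16.1 and 11.8 CPM in TDP-43iΔEC mice 1, 2 and 3, which is below every control (log2 fold change -1.62, SE 0.41, adjusted p = 0.287 in limma, 0.373 in edgeR and 0.0221 in DESeq2). Exons of *Masp2* on the opposite strand cover 33.1% of its exonic sequence, and the loxP-flanked exon cannot be separated in gene counts. The 7 EC marker genes, led by *Cldn5*, summed to 10390 to 13760 CPM in control and 9381 to 10920 CPM in TDP-43iΔEC mice. Of these 7, *Flt1*, *Kdr* and *Tek*, which encode endothelial receptors, were lower in every TDP-43iΔEC library, as were 7.93% of all tested genes. DESeq2 called *Flt1* (adjusted p = 8.1e-06, 0.0635 in limma). The other EC markers overlapped between the genotypes, and 1 of the 7 had a log2 fold change above 0. Lists for mural cells, fibroblasts, neurons, astrocytes and microglia had sums of 0 to 922.9 CPM. The highest was the mural cell sum, led by *Rgs5*, in TDP-43iΔEC mouse 2. The astrocyte list, led by *Gja1*, summed to 231 to 256 CPM in control and 128 to 175 CPM in TDP-43iΔEC mice. *Gja1* alone made up most of these sums, with 209 to 242 CPM in control and 103 to 170 CPM in TDP-43iΔEC mice. Of the 3 tested genes of this list, only *Gja1* was lower in every TDP-43iΔEC library, and 1 had a log2 fold change above 0. The 4 oligodendrocyte genes *Olig1*, *Olig2*, *Mbp* and *Mog* summed to 92.6, 208 and 160 CPM in control mice and 206, 23.5 and 0.848 CPM in TDP-43iΔEC mice 1, 2 and 3, with all 4 log2 fold changes below 0, 0 past the threshold in limma and *Olig1* called by DESeq2 (adjusted p = 0.0293). *Tubb3*, *Adgre1* and *Itgam* were at 0 in all libraries. The red blood cell list had 4 of 5 genes past the threshold in limma, all lower, against 0 in the other marker lists given here in limma, and summed to 6935 to 10580 CPM in control and 2034 to 2884 CPM in TDP-43iΔEC mice, led by *Hba-a2*. The study's antibody list holds fluorescent antibodies to CD45 and to the erythroid antigen TER-119, which would remove such cells if used to exclude them in the sort, and the gates are not given in the sources used here. The part of these cells in the values below was not tested. Control mouse 2 stood apart: 16.0% of the tested genes had 0 counts there, against 1.88% to 9.03% in the other libraries, and so did 3 of the 10 p53 targets. Values of the 10 genes that moved by over 1.5 times without it are given both ways.

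p53 is a transcription factor that is kept scarce in unstressed cells because Mdm2, the product of its own target gene, marks it for degradation. DNA damage and other stresses stabilise it, and it then binds DNA as a tetramer at elements built from a pair of 10-base repeats. Its targets stop the cell cycle (p21, from *Cdkn1a*), restrain growth signalling, or commit the cell to death through the mitochondrial pathway (Bax and Puma, the product of *Bbc3*) or through death-receptor relatives such as Eda2r.

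To show what the genes share at the DNA level, the p53 consensus response element (2 abutting repeats, up to 2 mismatches, with the central C and G of each repeat kept) was searched on both strands within 5 kb of the start of the canonical transcript. Of the 10 genes, 5 held a match, compared with 9.86% of the 21617 protein-coding genes searched with windows of the same size. With up to 1 mismatch, 3 of the 10 held one, against 1.67% of all windows. The 7 matches are printed 5′ to 3′ on the strand of the gene, with the central bases of each repeat in capitals.
*Cdkn1a*: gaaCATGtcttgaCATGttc
*Ccng1*, upstream: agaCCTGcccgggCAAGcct
*Ccng1*, intronic: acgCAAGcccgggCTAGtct
*Zmat3*, upstream: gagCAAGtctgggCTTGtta
*Zmat3*, within the gene: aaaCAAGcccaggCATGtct
*Bax*: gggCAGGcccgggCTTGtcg
*Eda2r*: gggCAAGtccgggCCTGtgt

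In GRCm39 the *Cdkn1a* element lies at chr17:29309902-29309921 on the plus strand, at position -2827 from the start of the canonical transcript and upstream of the annotated gene. The *Ccng1* elements lie on the minus strand at chr11:40646289-40646308, at position -161, and at chr11:40645763-40645782, at position 365 in an intron. The *Zmat3* elements, also on the minus strand, lie at positions -4402 (chr3:32424300-32424319) and 1418 (chr3:32418480-32418499). The latter was the only match without a mismatch, a class held by 0.194% of all windows. The *Bax* element (chr7:45115998-45116017, minus strand) lies at position 317 and the *Eda2r* element (chrX:96420140-96420159, minus strand) at position 689. These last 2 and the *Zmat3* element without a mismatch overlap an exon of at least 1 annotated transcript. No match was found in the windows of *Sesn1*, *Mdm2*, *Bbc3*, *Phlda3* and *Trp53inp1*. A match is a string of letters and does not show binding.

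In the comparison of TDP-43iΔEC with control ECs, 2 of the death genes did not overlap between the genotypes, whereas all 4 arrest genes did. A difference between the arms was not tested, and the wider lists below lay the other way. Their median log2 fold changes were 0.44 for 15 other arrest and growth targets and -0.18 for 15 other death targets. *Eda2r* and *Phlda3* were nearly undetected in control ECs and were present in all 3 TDP-43iΔEC libraries, with mean levels 142- and 34.3-fold higher. *Cdkn1a*, the most abundant of the 10, was 1.23-fold higher on average, within the spread between mice, and *Mdm2*, *Sesn1* and *Zmat3* had log2 fold changes between -0.05 and 0.09. In limma, 0 of the 10 genes passed the adjusted p threshold of 0.05, where 0.137% of all tested genes did. Without adjustment, *Eda2r* and *Phlda3* had p under 0.05 and were higher, as were 4.26% of all tested genes. They were also the 2 of 10 whose TDP-43iΔEC libraries all lay above the controls (7.40% of all tested genes), and 0 of 10 lay wholly below (7.93%). DESeq2's Wald test called the same 2 genes, against 1.88% of the tested genes, and edgeR's quasi-likelihood test called 0 of the 10 and 0% of all genes, with both genes at unadjusted p under 0.05. An exact permutation test of 3 mice against 3 cannot go below p = 0.1. Since *Eda2r* and *Phlda3* passed the filter on low counts only through the TDP-43iΔEC libraries, the counts of genes in this paragraph, and the intervals and p of these 2 genes, are descriptions. In bulk RNA, a change in the number of cells that express a gene and a change in RNA per cell cannot be told apart.

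**Figure D1:**
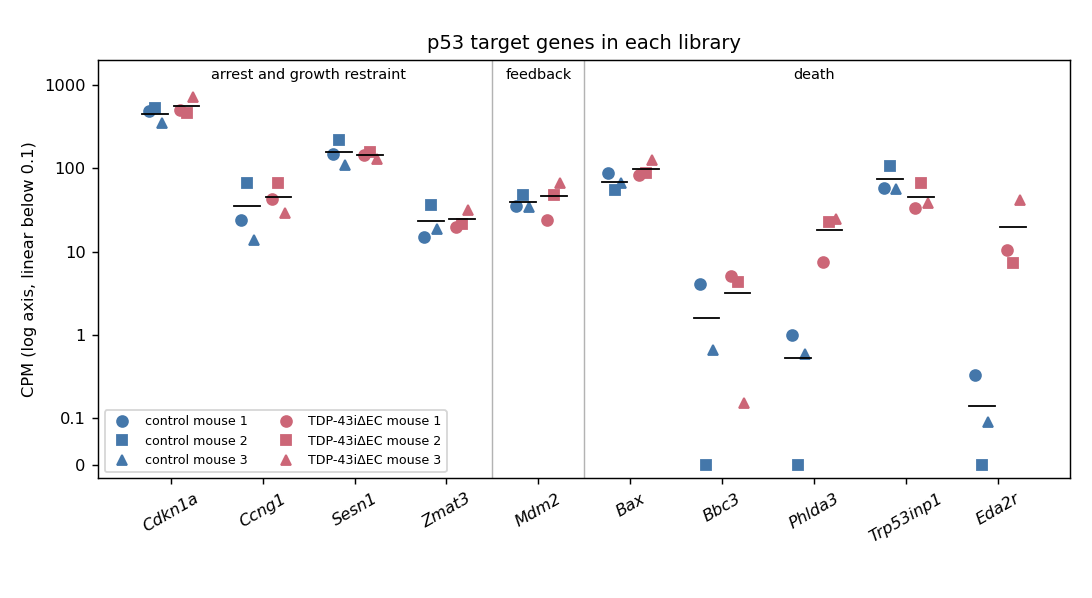
CPM of the 10 genes (log axis, linear below 0.1) in the 3 control libraries (blue) and the 3 TDP-43iΔEC libraries (red), with a symbol for each mouse and a black bar at the mean of the group. *Phlda3* and *Eda2r* are the 2 genes with no overlap between the genotypes, and 3 genes lie at 0 in control mouse 2.

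*Cdkn1a* (chromosome 17 from 29309936 to 29319701) encodes p21, an inhibitor of cyclin-dependent kinases. It had 484, 528 and 346 CPM in control mice 1 to 3 and 498.5, 462 and 714.5 CPM in TDP-43iΔEC mice 1 to 3. The groups overlapped, with TDP-43iΔEC mouse 3 highest and control mouse 3 lowest. The log2 fold change was 0.28 (SE 0.22, 95% interval -0.22 to 0.77, adjusted p = 0.685 in limma). Without control mouse 3 it was 0.09 and without TDP-43iΔEC mouse 3 it was 0.13. Scaling by library size alone gave 0.47 and placed all 3 TDP-43iΔEC libraries above the controls, but that scaling also shifted the median of all genes by 0.19, and it placed 10.6% of all tested genes wholly above. Antisense genes, among them *Dino*, cover 12.5% of the exonic sequence of *Cdkn1a*.

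The other genes of arrest and growth restraint overlapped between the genotypes. *Ccng1* (chromosome 11 from 40639377 to 40646148), which encodes cyclin G1, had 24.0, 66.8 and 13.9 CPM in control and 42.2, 65.8 and 28.8 CPM in TDP-43iΔEC mice (log2 fold change 0.65, SE 0.57, adjusted p = 0.717 in limma). Single control mice moved this value, to 1.25 (unadjusted p = 0.0385, adjusted p = 0.521) without mouse 2 and to 0.13 without mouse 3. *Sesn1* (chromosome 10 from 41685931 to 41784423), which encodes sestrin 1, a stress-induced restraint on mTORC1, had 146, 216 and 109 CPM in control and 146, 158 and 130 CPM in TDP-43iΔEC mice (log2 fold change -0.05, 95% interval -0.67 to 0.57). *Zmat3* (chromosome 3 from 32388941 to 32420163), which encodes a zinc finger RNA-binding protein, had 14.9, 35.7 and 18.6 CPM in control and 19.5, 21.6 and 31.9 CPM in TDP-43iΔEC mice (log2 fold change 0.09, 95% interval -0.98 to 1.16). For all 3 genes control mouse 2 was the highest control. Without it, every TDP-43iΔEC library lay above the remaining controls for *Ccng1* and *Zmat3* (9.66% of all genes tested without it), the log2 fold change of *Zmat3* was 0.45, and the log2 fold change of *Sesn1* turned from -0.05 to 0.19. The sign of *Sesn1* also turned under scaling by library size (0.13) and to EC markers (0.19), which shifted the median of all tested genes by 0.19 and 0.24. That of *Zmat3* turned without control mouse 1 (-0.17).

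*Mdm2* (chromosome 10 from 117524780 to 117546730), the feedback gene, encodes the ubiquitin ligase that degrades p53. Its levels were 35.1, 47.4 and 34.7 CPM in control and 24.2, 47.2 and 66.0 CPM in TDP-43iΔEC mice, so the controls lay inside the range of the TDP-43iΔEC mice. The log2 fold change was 0.00 (-0.0027, SE 0.42, 95% interval -0.95 to 0.94), and its sign was positive under every other scaling tried, from 0.037 with DESeq2's size factors to 0.28 with scaling to EC markers, and also without control mouse 2 (0.15). Those scalings also shifted the median of all tested genes, by 0.038 to 0.24.

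Among the death genes, *Eda2r* (chromosome X from 96320270 to 96420847) showed the highest ratio. It encodes a receptor of the tumor necrosis factor receptor family that binds the A2 form of ectodysplasin. It had 14, 0 and 4 counts in control mice 1, 2 and 3, or 0.326, 0 and 0.0917 CPM, and 510, 229 and 1076 counts in TDP-43iΔEC mice, or 10.5, 7.35 and 41.5 CPM. The lowest TDP-43iΔEC library was thus far above the highest control, while the TDP-43iΔEC mice differed among themselves (mean 19.8 ± 18.9 CPM, SD, n = 3). By read sampling alone, the 0 in control mouse 2 allows up to 3 counts, or 0.0724 CPM. That library also had 0 counts for *Cdk1*, which had 29.9 and 19.1 CPM in control mice 1 and 3. A 0 there therefore does not bound the level in the cells. The log2 fold change was 7.42 (SE 2.28, 95% interval 2.26 to 12.59, unadjusted p = 0.01, adjusted p = 0.383 in limma), the 23rd highest of the tested genes. It lay between 6.15, without control mouse 2 (unadjusted p = 0.0444), and 8.52 when single mice were left out. No exon of another annotated gene overlaps its exons.

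*Phlda3* (chromosome 1 from 135693809 to 135697686) encodes a small pleckstrin homology-domain protein that competes with Akt for membrane lipids and so dampens survival signalling. Its counts were 43, 0 and 26 in control mice and 363, 707 and 641 in TDP-43iΔEC mice, or 1.00, 0 and 0.596 CPM against 7.47, 22.7 and 24.7 CPM. The groups did not overlap, and TDP-43iΔEC mouse 1 was the lowest of its group. The log2 fold change was 6.12 (SE 2.17, 95% interval 1.19 to 11.04, unadjusted p = 0.0204, adjusted p = 0.471 in limma), the 75th highest of the tested genes, and without control mouse 2 it was 4.17 (unadjusted p = 0.0613). As for *Eda2r*, a fitted fold change at such low control counts depends on the offset of 0.5 counts in voom, and the adjusted p was 0.0102 in DESeq2 and 0.554 in edgeR. For *Eda2r* these values were 1.1e-05 and 0.373.

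The remaining death genes did not separate the genotypes. *Bax* (chromosome 7 from 45111015 to 45116325), which encodes a pore-forming protein of the mitochondrial outer membrane, had 86.9, 54.8 and 65.8 CPM in control and 82.8, 86.8 and 124.8 CPM in TDP-43iΔEC mice (log2 fold change 0.46, SE 0.28, 95% interval -0.18 to 1.11, adjusted p = 0.614 in limma). Its value was positive in all 15 alternatives, from 0.31, without control mouse 2, to 0.70, and 13.6% of its exonic sequence is shared with other annotated genes. *Bbc3* (chromosome 7 from 16042318 to 16052130), which encodes the BH3-only protein Puma, was scarce and erratic, with 4.10, 0 and 0.665 CPM in control and 5.14, 4.30 and 0.154 CPM in TDP-43iΔEC mice, and the interval of its log2 fold change (2.48) ran from -3.40 to 8.36. Without control mouse 2 the value was 0.19. *Trp53inp1* (chromosome 4 from 11156412 to 11175230), which encodes a nuclear and autophagy-related p53 partner, was the one death gene with a negative value. It had 57.9, 107.5 and 56.0 CPM in control and 33.0, 65.8 and 38.0 CPM in TDP-43iΔEC mice (log2 fold change -0.73, SE 0.40, 95% interval -1.63 to 0.17, adjusted p = 0.589 in limma), and only TDP-43iΔEC mouse 2 reached the control range. Without control mouse 2 the value was -0.44.

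**Figure D2:**
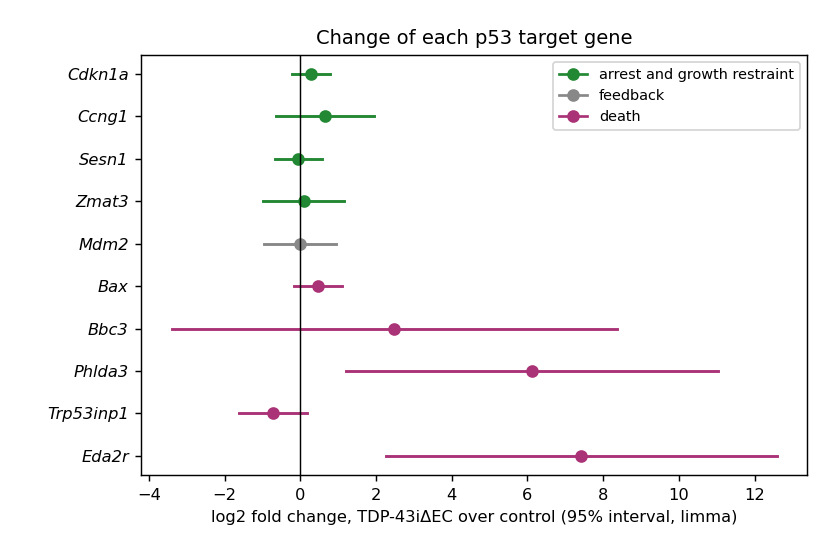
Log2 fold change of each gene, TDP-43iΔEC over control (points), with its 95% interval from limma (lines), colored by role. *Phlda3* (6.12) and *Eda2r* (7.42) have the highest values and, with *Bbc3*, the widest intervals. *Phlda3* and *Eda2r* passed the filter on low counts only through the TDP-43iΔEC libraries, so their place is a description.

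Levels were compared between genes per kilobase of exon. In control ECs *Cdkn1a* led with 74.9 ± 15.7 CPM per kb (SD, n = 3), followed by *Bax* (37.3 ± 8.81), *Sesn1* (31.1 ± 10.7), *Trp53inp1* (10.1 ± 3.98), *Ccng1* (7.93 ± 6.38), *Mdm2* (5.07 ± 0.938) and *Zmat3* (2.01 ± 0.972). *Bbc3*, *Phlda3* and *Eda2r* followed at 0.332 ± 0.460, 0.206 ± 0.195 and 0.0186 ± 0.0224 CPM per kb, and these 3 neighbours overlapped in their ranges. So did *Bax* with *Sesn1*, *Trp53inp1* with *Ccng1*, and *Ccng1* with *Mdm2*. In TDP-43iΔEC ECs the first 3 places were the same, with ranges that did not overlap, while *Phlda3* (7.07 ± 3.64 CPM per kb) took the fifth place and *Eda2r* (2.64 ± 2.52) the eighth. From the fourth place (*Ccng1*) to the ninth (*Zmat3*), each gene overlapped the next in range.

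**Figure D3:**
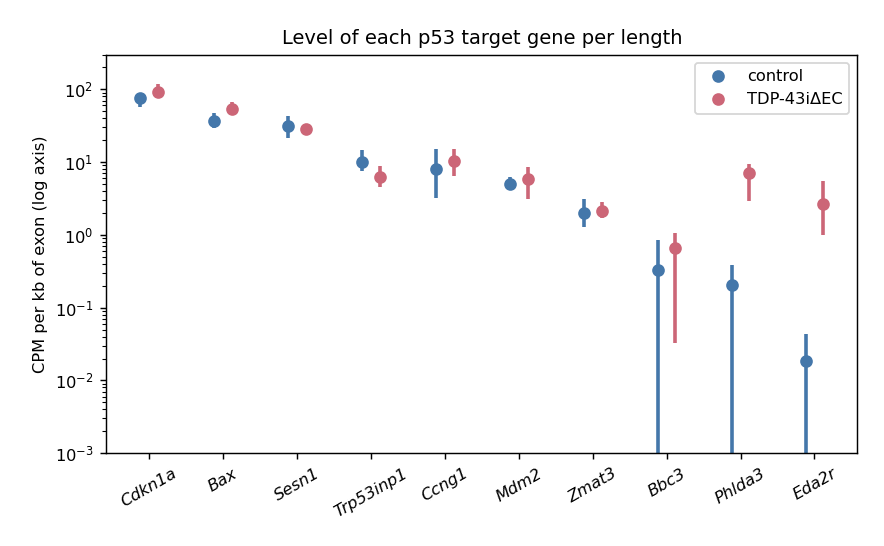
Mean CPM per kilobase of exon (points, log axis) and the range over the 3 libraries (lines) of each gene in control and TDP-43iΔEC ECs, ordered by the control mean. Lines that reach the lower edge include a library at 0, and *Phlda3* and *Eda2r* are the genes whose ranges do not meet.

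No difference in p53 itself or its regulators was detected. *Trp53*, the gene of p53, had 127, 104 and 118 CPM in control and 125, 200 and 155 CPM in TDP-43iΔEC mice (log2 fold change 0.40, SE 0.24, 95% interval -0.14 to 0.94). *Mdm4*, which encodes a p53 inhibitor related to Mdm2, had 42.4, 71.0 and 57.2 CPM in control and 48.4, 57.0 and 64.9 CPM in TDP-43iΔEC mice (log2 fold change -0.01). Of the 17 genes of this list, 0 had an unadjusted p under 0.05 in limma, edgeR or DESeq2, and their median log2 fold change was -0.01 (-0.23 without control mouse 2), beside -0.02 over all tested genes. The lowest unadjusted p values in limma were those of the deacetylase gene *Sirt1* (0.0694), with every TDP-43iΔEC library above every control, and of the kinase genes *Hipk2* (0.0974), with every one below, and *Atr* (0.114), with overlap.

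A wider list of 48 other p53 targets, of which 43 were tested, held values in both directions. In limma 0 passed the threshold and 9 had an unadjusted p under 0.05 (7 higher, 2 lower). Of all 13107 tested genes, 559 (4.26%) were higher and 656 lower at that p. edgeR called 0 and DESeq2 called 2, *Plk2* and *Gdf15*. The TDP-43iΔEC libraries lay wholly above the controls for 8 genes and wholly below for 5 (7.40% and 7.93% of all tested genes), and the median log2 fold change was 0.14 (0.10 without control mouse 2). Genes with 0 counts in control mouse 2, such as *Dcxr* (171, 0 and 291 counts in control), passed the filter on low counts only with the help of TDP-43iΔEC libraries. The counts of genes in this list are therefore descriptions. Among the 15 tested targets of arrest and growth, *Plk2*, a stress-induced polo-like kinase, had 384, 232 and 382 CPM in control and 649, 527 and 657 CPM in TDP-43iΔEC mice (log2 fold change 0.91, SE 0.21, adjusted p = 0.269 in limma). *Gdf15*, which encodes a stress cytokine, had 9.86, 6.64 and 6.24 CPM in control and 43.2, 20.3 and 29.8 CPM in TDP-43iΔEC mice (log2 fold change 2.07, SE 0.65, adjusted p = 0.395 in limma). Both genes thus had every TDP-43iΔEC library above every control. *Notch1*, by contrast, was lower in all 3 (209 to 266 CPM against 148 to 187 CPM, adjusted p = 0.471 in limma). The median log2 fold change of these 15 genes was 0.44, with 12 above 0.

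Among the 15 tested death targets, *Pmaip1*, which encodes the BH3-only protein Noxa, had 55.2, 58.7 and 40.0 CPM in control and 122, 70.0 and 116 CPM in TDP-43iΔEC mice (log2 fold change 1.01, SE 0.32, adjusted p = 0.395 in limma). *Trp53i11* had 96.2 to 181 CPM in control and 196 to 376 CPM in TDP-43iΔEC mice (adjusted p = 0.360 in limma), and *Apaf1*, the scaffold of the apoptosome, had 0.676 to 17.9 and 27.1 to 57.7 CPM (adjusted p = 0.471 in limma). Without control mouse 2 the log2 fold change of *Apaf1* was 1.62 instead of 3.01 (unadjusted p = 0.0183 in limma). That of *Trp53i11* was 1.25 instead of 1.03 (unadjusted p = 0.00421 instead of 0.00825 in limma). These 3 genes were higher in every TDP-43iΔEC library. The death receptor gene *Fas* was lower in every one, with 133, 307 and 161 CPM in control and 115, 80.5 and 129.9 CPM in TDP-43iΔEC mice (log2 fold change -0.81, unadjusted p = 0.0495, adjusted p = 0.538 in limma), and without control mouse 2 its value was -0.47 (unadjusted p = 0.116). *Triap1*, an apoptosis inhibitor, was also lower in every one (unadjusted p = 0.0861). The median log2 fold change of the 15 genes was -0.18. Of the 13 tested genes of repair and metabolism, *Dcxr* was higher in every TDP-43iΔEC library (unadjusted p = 0.0456 in limma, log2 fold change 4.67, and 1.74 without control mouse 2) and *Xpc* and *Cpt1c* were lower in every one (0.0722 and 0.113), and the median was 0.02.

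**Figure D4:**
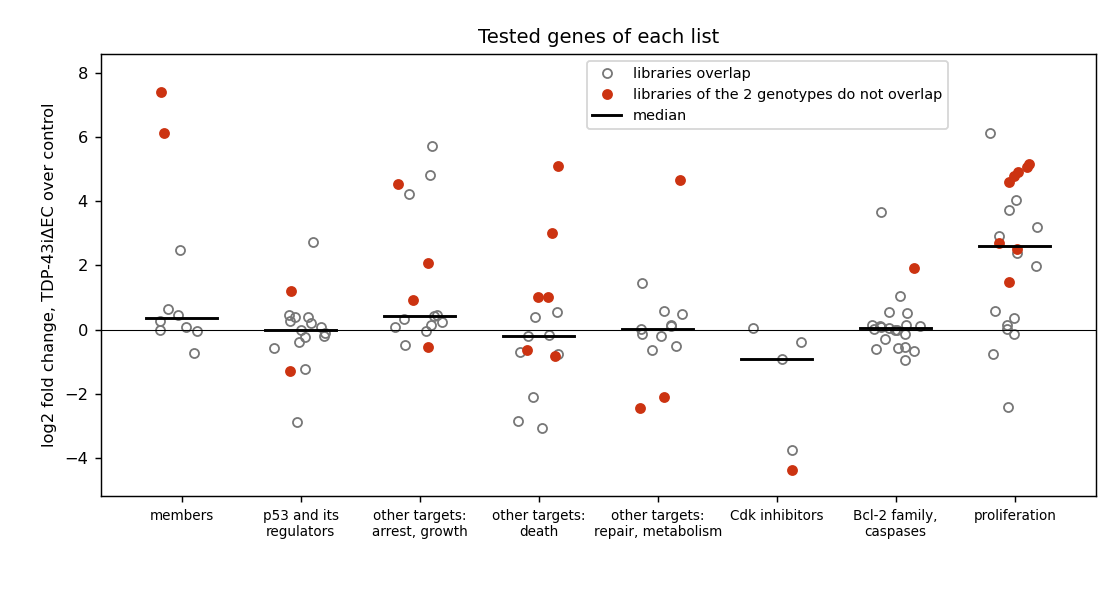
Log2 fold change, TDP-43iΔEC over control, of each tested gene in the p53 target set described here (members) and in 7 related lists, with the median of each list as a bar. Filled points are genes whose libraries of the 2 genotypes did not overlap, and 13 of the 22 proliferation genes had 0 counts in control mouse 2.

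Cdk inhibitors, the Bcl-2 family and proliferation genes were compared as neighbours of the pathway. Of the 5 tested Cdk inhibitors other than *Cdkn1a*, *Cdkn2b*, which encodes p15, had 125, 57.9 and 124 CPM in control and 2.26, 12.2 and 7.10 CPM in TDP-43iΔEC mice, with every TDP-43iΔEC library below every control (log2 fold change -4.36, SE 1.10, unadjusted p = 0.00338, adjusted p = 0.287 in limma, 8.6e-07 in DESeq2). Without control mouse 2 the log2 fold change of *Cdkn2b* was -4.72 (unadjusted p = 9.6e-05, adjusted p = 0.0859 in limma). *Cdkn2c* and *Cdkn1b* had unadjusted p of 0.107 and 0.306 in limma. Of 21 tested genes of the Bcl-2 family and caspases, 0 passed the threshold with limma, edgeR or DESeq2. The lowest unadjusted p values in limma were those of *Casp6* (0.045, lower), the cytochrome c gene *Cycs* (0.0588) and *Diablo* (0.0941, both higher), and the median log2 fold change was 0.06. Of 22 tested proliferation genes, 0 passed in limma or edgeR, 2 (*Cdk1* and *Plk1*) had an unadjusted p under 0.05 in limma, and DESeq2 called *Top2a*. *Mcm2*, which encodes a subunit of the replicative helicase, was next (unadjusted p = 0.0525 in limma). Without control mouse 2 the log2 fold changes of *Cdk1*, *Plk1* and *Mcm2* were 1.57, 4.83 and 0.80 instead of 5.15, 6.13 and 1.47. The unadjusted p in limma was then lower for *Cdk1* (0.00448 instead of 0.0364, adjusted p = 0.408). It was higher for *Plk1* (0.119 instead of 0.0367) and *Mcm2* (0.135 instead of 0.0525). For 8 of the 22 genes the TDP-43iΔEC libraries lay wholly above all 3 controls, and for 0 wholly below (7.40% and 7.93% of all tested genes). The log2 fold change was above 0 for 19 of the 22. However, 13 of the 22 genes had 0 counts in control mouse 2. Such a gene cannot lie wholly below, and it passed the filter on low counts only with the help of TDP-43iΔEC libraries. The counts of 8, 0 and 19 genes are therefore descriptions. The median of the list was 2.60, and without control mouse 2 it was 0.80.

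The 5 genes whose pattern over the 6 libraries was most like that of *Cdkn1a*, by the root mean square difference of centred log2 CPM among 7753 other genes, were *Lrrc8a* (0.08), *Rasd1* (0.10), *Akap12* (0.11), *Sap18* (0.12) and *Memo1* (0.12). Their log2 fold changes ranged from 0.09 to 0.35, with adjusted p from 0.709 to 0.939 in limma.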

How the data were processed

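ECs were sorted from P16 spinal cords and each mouse gave 1 SMARTseq2 library. Alignment by the authors used STAR 2.7.8a on GRCm39, and RSEM 1.3.0 gave gene values for GENCODE M30. The deposited values are estimated counts (expected counts), not scaled or filtered, and 0 of them were not whole, so no rounding was needed. PCR copies were counted as reads.

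TDP-43iΔEC was compared with control in R 4.3.3 with limma 3.58.1 (voom, after TMM and filterByExpr of edgeR 4.0.16, no covariate), with Benjamini-Hochberg adjustment over 13107 genes and a threshold of 0.05. CPM use TMM-scaled totals. At 3 counts the floor from read sampling alone was 0.0617 to 0.116 CPM, which does not bound the level in the cells. Exonic lengths, positions and response elements came from GENCODE M39, which holds 98.7% of the gene identifiers, and GRCm39. The procedures were tested on simulated counts. Alternatives were edgeR's quasi-likelihood test, DESeq2 1.42.0, other scalings, filters and weights, a replicate block and leaving out each mouse.

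The 10 genes and all lists were chosen with earlier results of these data known. Genes named from the lists are *Trp53*, *Mdm4*, those past the threshold, and otherwise the 3 with the lowest p per list, the 5 genes most like *Cdkn1a*, and of each marker list the leading gene and those at 0. One gene of a marker list is not reported here. *Top2a*, *Fas*, *Triap1* and the marker genes *Flt1*, *Kdr*, *Tek*, *Olig1*, *Olig2*, *Mbp* and *Mog* were named after their values were seen. Each library comes from a separate mouse.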

Additional observations from a re-analysis of the deposited data

How the results depend on the processing

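Of the 13107 genes, 18 passed in limma, 31 at an adjusted p under 0.1, 0 in edgeR (848 at an unadjusted p under 0.05), 247 in DESeq2, 10 with scaling by library size, 1 with scaling to EC markers, 76 without a filter, 39 with at least 10 counts in every library, and 0 to 13 with single mice left out (0 without TDP-43iΔEC mouse 1). DESeq2 was the one alternative in which p53 targets described here passed, 2 in number, *Phlda3* (log2 fold change 5.15) and *Eda2r* (7.19). It also called 2 other p53 targets, 1 Cdk inhibitor and 1 proliferation gene, and the filter of at least 10 counts called 1 Cdk inhibitor. The number of the 10 genes whose groups did not overlap was 2, and 4 with scaling by library size (with *Bax* and *Cdkn1a*), 3 with scaling to EC markers (with *Bax*), 0 with at least 10 counts, which removes *Phlda3*, *Eda2r* and *Bbc3*, and 2 to 4 with single mice left out. All of these lay above the controls, except *Trp53inp1*, which lay below without TDP-43iΔEC mouse 2. Of all genes tested, 7.40% lay wholly above the controls, and 10.6%, 11.1%, 7.37% and 9.66% to 12.6% under those settings. Wholly below lay 7.93%, and 4.99%, 4.01%, 9.15% and 11.6% to 13.9% under the same settings. The sign of *Mdm2* turned with edgeR (0.23), DESeq2 (0.26), sample quality weights (0.26), DESeq2 size factors (0.037), library size (0.20), EC markers (0.28), at least 10 counts (0.030) and the replicate block (0.16), and ranged from -0.28 to 0.51 with single mice left out. *Sesn1* turned with quality weights (0.14), library size (0.13) and EC markers (0.19) and ranged from -0.29 to 0.19, and *Zmat3* from -0.17 to 0.45, with single mice left out. Against the main scaling, DESeq2 size factors, library size and EC markers also shifted the median of all tested genes, by 0.038, 0.19 and 0.24. The cause of the turned signs was not tested. Same-numbered mice did not deviate together (correlations -0.06, -0.13 and -0.03), so the numbers were not used to pair them in the main fit. The labels give no litter or sort day, and a pairing by either was not tested. The replicate block gave 22 genes past the threshold and 0 of the 10. At the depth of control mouse 2, read sampling alone sets a floor of 0.0724 CPM. Zeros there also fell on genes far above that floor in the other controls, such as *Cdk1*. Leaving out 1 mouse assumes that the remaining mice vary alike.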
